A study of Mus musculus with 18 samples.

Results

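The genes described here are 10 members of major histocompatibility complex (MHC) class I and class II antigen presentation, followed through RNA from 18 mouse mammary tumors. They were taken by symbol from the 55450 genes of the tables, and all 10 were found: H2-K1, H2-D1, B2m, Tap1 and Tap2 for class I, and H2-Aa, H2-Ab1, H2-Eb1, Cd74 and Ciita for class II. Each tumor arose spontaneously in the mammary gland, was untreated and is labelled as from a different mouse. RNA was sequenced in bulk from the freshly isolated tissue. Every genotype label carried MMTV-Cre(+), a Cre recombinase under the mouse mammary tumor virus promoter that is active mainly in mammary epithelium, and Pikca(H1047R, het), 1 allele of the Pik3ca oncogene under the labels' own spelling. The groups differed in the third part of the label, with 14 tumors labelled Cbfb(het), 3 labelled Cbfb(wt) and 1 labelled Cbfb(homo). The labels do not say what was changed in Cbfb, and they give no age, sex or strain. No tumor lacked the Cre transgene or the Pik3ca allele, so the groups hold no normal gland. The tumors are described by the level of Epcam, an adhesion protein of epithelial cells, and against Ptprc, which encodes the leukocyte surface protein CD45.

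MHC class I molecules display peptides made inside the cell to CD8 T cells and are carried by nearly all nucleated cells. A heavy chain, here H2-K1 or H2-D1, pairs with the light chain B2m and is loaded with peptides that the transporter formed by Tap1 and Tap2 pumps into the endoplasmic reticulum. MHC class II molecules display peptides from engulfed material to CD4 T cells and are best known on dendritic cells, B cells and macrophages, although epithelial cells can also make them under interferon gamma. H2-Aa and H2-Ab1 are the alpha and beta chain genes of I-A, H2-Eb1 is the beta chain gene of I-E, Cd74 is the invariant chain that blocks the peptide groove until the endosome, and Ciita is the transactivator on which class II transcription depends. Nlrc5, a relative of Ciita, is the corresponding transactivator of class I genes.

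Promoter windows from RefSeq (GRCm38.p6) were searched for 6 of the 10 members, and 5 are printed to show which of the searched elements each window holds. The other members were not searched, and this does not mean that they lack an entry. Each run holds 250 bases before and 50 after the annotated start, written 5′ to 3′ on the gene's strand. Capitals mark CCAAT or its reverse complement ATTGG (the Y box), an 11-base X1 box sequence (in H2-Eb1) and an 11-base palindromic kappa B element (in H2-K1 and H2-D1), each searched on both strands with no overlap between them. The H2-K1 window is chr17:34000284-34000583 on the minus strand, 1 of 2 entries. The H2-D1 window is chr17:35262844-35263143 on the plus strand. The B2m window is chr2:122147437-122147736 on the plus strand. The H2-Aa window is chr17:34287774-34288073 on the minus strand, and the H2-Eb1 window is chr17:34305617-34305916 on the plus strand.
H2-K1: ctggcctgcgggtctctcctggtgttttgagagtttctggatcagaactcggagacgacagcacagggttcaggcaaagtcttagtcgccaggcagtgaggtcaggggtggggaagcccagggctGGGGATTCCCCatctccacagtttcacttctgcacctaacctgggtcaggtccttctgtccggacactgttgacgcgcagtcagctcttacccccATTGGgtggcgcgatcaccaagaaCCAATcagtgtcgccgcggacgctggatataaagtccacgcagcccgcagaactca
H2-D1: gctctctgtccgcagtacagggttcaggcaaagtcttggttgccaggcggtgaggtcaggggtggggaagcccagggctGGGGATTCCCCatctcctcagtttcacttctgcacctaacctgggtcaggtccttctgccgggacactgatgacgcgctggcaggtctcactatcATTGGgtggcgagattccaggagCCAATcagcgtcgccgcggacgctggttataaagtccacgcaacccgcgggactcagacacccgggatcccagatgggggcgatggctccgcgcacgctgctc
B2m: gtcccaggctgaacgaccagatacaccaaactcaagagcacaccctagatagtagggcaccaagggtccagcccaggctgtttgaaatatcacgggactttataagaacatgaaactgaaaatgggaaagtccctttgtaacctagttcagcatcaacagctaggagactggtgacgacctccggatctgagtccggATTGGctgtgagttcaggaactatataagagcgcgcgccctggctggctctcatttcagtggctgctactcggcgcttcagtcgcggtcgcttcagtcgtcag
H2-Aa: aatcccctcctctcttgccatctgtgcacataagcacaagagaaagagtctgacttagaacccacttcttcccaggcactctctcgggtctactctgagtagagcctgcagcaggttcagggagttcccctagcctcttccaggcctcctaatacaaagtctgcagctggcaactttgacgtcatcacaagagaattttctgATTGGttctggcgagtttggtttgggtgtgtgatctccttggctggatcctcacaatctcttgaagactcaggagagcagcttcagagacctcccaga
H2-Eb1: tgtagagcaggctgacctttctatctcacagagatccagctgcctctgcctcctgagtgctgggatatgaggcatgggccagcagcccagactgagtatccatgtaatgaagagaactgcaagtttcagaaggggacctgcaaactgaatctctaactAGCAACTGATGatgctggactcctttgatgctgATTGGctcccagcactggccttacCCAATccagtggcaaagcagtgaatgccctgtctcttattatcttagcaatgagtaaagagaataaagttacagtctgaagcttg
All 5 held the CCAAT box, as did Tap1 and 37.4% of 32851 promoters of the same length. The 11-base kappa B element stood in H2-K1 and H2-D1 and in 10 promoters in all (0.0304%). The X1 sequence stood in H2-Eb1 and in 23 promoters in all (0.07%). B2m and H2-Aa held only the CCAAT box of these 3. Looser searches, not in capitals, matched an interferon response type sequence in B2m (3.44% of promoters) and a shorter kappa B type sequence in H2-Aa (0.359% of promoters). A match is a string of letters and no evidence of binding, and a window without one says nothing about the factor.

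By position, 7 of the members lie within the MHC on chromosome 17 of GRCm38, in the order H2-K1 (33996017 to 34000347, minus strand), Tap1 (34187553 to 34197225), Tap2 (34203527 to 34216321), H2-Ab1 (34257689 to 34269419), H2-Aa (34282744 to 34287823, minus strand), H2-Eb1 (34305867 to 34316674) and H2-D1 (35262730 to 35267499). B2m is on chromosome 2 (122147686 to 122153083), Ciita on chromosome 16 (10480059 to 10528418) and Cd74 on chromosome 18 (60803848 to 60812652), all on the plus strand. All 10 are protein-coding and were counted over their exons as whole genes.

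Before the results, 3 facts about the libraries bear on them. Totals lay between 33210207 and 40974130 rounded expected counts, so every member was well covered: the lowest value of any member in any tumor was 178 counts, for Ciita. The libraries labelled Cbfb(het) 10 and Cbfb(het) 14 were closer to each other than any other pair, with a chi-square of 4.51 per degree of freedom over 14533 genes against 94.7 for the next pair. This exceeds sampling noise, so both were kept, and results that rest on them are also given without both. Milk protein genes summed to between 6.42 and 182000 TPM, the abundance scaled by gene length. RNA of the targeted gene did not separate the labels: Cbfb stood at 10.8 TPM in the Cbfb(homo) tumor, at 12.03, 22.1 and 35.7 in the Cbfb(wt) tumors and from 12.8 to 71.1 in the Cbfb(het) tumors. Directions between groups are therefore those of the labels.

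Epcam ordered the tumors into a main body and 5 low tumors. In log2 CPM, the count scaled to library size, 13 tumors lay between 8.38 and 9.52 (331 to 666 TPM). Apart from them by gaps of over 1.5 stood Cbfb(het) 12 at 6.84, Cbfb(het) 1 at 6.28, Cbfb(het) 14 at 4.82, Cbfb(het) 10 at 4.79 and, alone at the bottom, Cbfb(wt) 2 at 2.42. The 5 low tumors had 6690 to 11700 TPM summed over 8 mesenchymal markers, against 213 to 2800 in the other 13, so these groups did not overlap. Ptprc ran without such a gap from 4.47 log2 CPM in Cbfb(het) 8 to 6.998 in Cbfb(wt) 2 (4.0 to 49.6 TPM, with the highest TPM in Cbfb(het) 12). The 2 genes ran partly against each other, with a Pearson correlation of -0.54 over 18 tumors and -0.32 over the 13, and 3 of the 5 low tumors had more Ptprc than any of the 13. In bulk RNA, fewer cells of a type and less RNA per cell cannot be told apart.

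Class I heavy chains were among the most abundant members, and of the 5 tumors low in Epcam, 3 lay below all 13 others in H2-K1 and 2 in H2-D1, counted in TPM. H2-K1, a classical heavy chain, stood at 792 TPM in Cbfb(wt) 2, 422 in Cbfb(het) 10, 412 in Cbfb(het) 14, 1719 in Cbfb(het) 1 and 1948 in Cbfb(het) 12. In the 13 other tumors it ran from 902 TPM in Cbfb(het) 8 through a median of 1577 to 4098 in Cbfb(het) 5. The first 3 thus lay below all 13, and the last 2 lay inside their range. H2-D1, the other classical heavy chain measured, stood in the same 5 tumors at 753, 458, 469, 1664 and 1421 TPM, against 558 to 2360 (median 1132) in the 13. Here Cbfb(het) 10 and 14 lay below the 13, and in log2 CPM Cbfb(wt) 2 did as well, at 9.52 against a lowest value of 9.58 in the 13. The lowest TPM of the 13 is that of Cbfb(het) 8, whose milk genes took 182000 TPM. The ratio of H2-K1 to H2-D1 ran from 0.879 in Cbfb(het) 14 to 1.78 in Cbfb(het) 4, with a median of 1.43. The expected counts of both genes were not whole in any of the 18 tumors, as happens where reads are shared out between related genes, so their levels are less certain than those of the other members.

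The light chain gene was not low in these tumors. B2m stood at 1609, 1698, 1669, 3413 and 3430 TPM in the 5 low tumors in the order above, and at 811 to 4268 TPM (median 2099) in the 13. All 5 lay within the range of the 13, whose lowest tumor was Cbfb(het) 8 and highest Cbfb(wt) 1. B2m had the highest median of the 10 members and exceeded H2-K1 in 16 of 18 tumors.

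The peptide transporter genes were also low in Cbfb(het) 10 and 14. Tap1 stood at 20.3, 21.2, 23.4, 36.2 and 61.7 TPM in the 5 low tumors, and at 21.2 to 126 TPM (median 42.5) in the 13. Cbfb(wt) 2 and Cbfb(het) 10 lay below the 13 by this measure, although Cbfb(het) 8 was almost as low. In log2 CPM, Cbfb(wt) 2, Cbfb(het) 10 and Cbfb(het) 14 stood at 5.11, 5.32 and 5.37. All lay below the lowest of the 13, Cbfb(wt) 3 at 5.71. Tap2 stood at 75.1, 21.5, 24.6, 64.9 and 82.4 TPM, and at 45.1 to 155 (median 65.9) in the 13. Cbfb(het) 10 and 14 lay below the 13, while Cbfb(wt) 2, low in Tap1, had more Tap2 than the median of the 13 in TPM, though not in log2 CPM. Tap2 exceeded Tap1 in 16 of 18 tumors.

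Class II genes were about as high in the 5 tumors low in Epcam as in the rest. H2-Aa, the I-A alpha chain, stood at 256, 338, 327, 262 and 1117 TPM in those 5 tumors and at 123 to 1166 TPM (median 264) in the 13. H2-Ab1, the I-A beta chain, stood at 202, 239, 259, 240 and 843 TPM, and at 107 to 1142 (median 239) in the 13. H2-Eb1, the I-E beta chain, stood at 117, 151, 160, 131 and 593 TPM, and at 58.0 to 751 (median 139) in the 13. None of the 5 low tumors lay outside the range of the 13 for any of these chains, and among them Cbfb(het) 12 was far above the other four. Cd74, the invariant chain, stood at 568, 679, 705, 682 and 2777 TPM, and at 320 to 3089 (median 672) in the 13. In all 4 of these genes Cbfb(het) 6 was the lowest tumor and Cbfb(het) 5 the highest.

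Ciita was the scarcest member, at 2.50, 2.04, 2.30, 1.76 and 11.6 TPM in the 5 low tumors and 0.99 to 4.97 TPM (median 1.78) in the 13. Cbfb(het) 12, which also had the most Ptprc, lay above every other tumor, and the remaining low tumors lay within the range of the 13. Across all tumors, Cbfb(het) 5 held the highest TPM of 8 of the 10 members, with B2m highest in Cbfb(wt) 1 and Ciita in Cbfb(het) 12. Cbfb(het) 5 also had the highest summed plasma cell markers (3180 TPM, from 4.91 upward) and NK markers (21.5 TPM, from 0.70 upward). The NK sum was mostly Nkg7 (20.1 TPM), while Ncr1 and Klrb1c were highest in Cbfb(het) 1 and Cbfb(het) 12. Of the T cell markers, Cd3d, Cd3e, Cd3g, Cd8a and Trac were also highest in Cbfb(het) 5, but Cd4 and Trbc2 were not. The part of these markers' cells in the MHC levels of Cbfb(het) 5 was not tested.

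**Figure D1:**
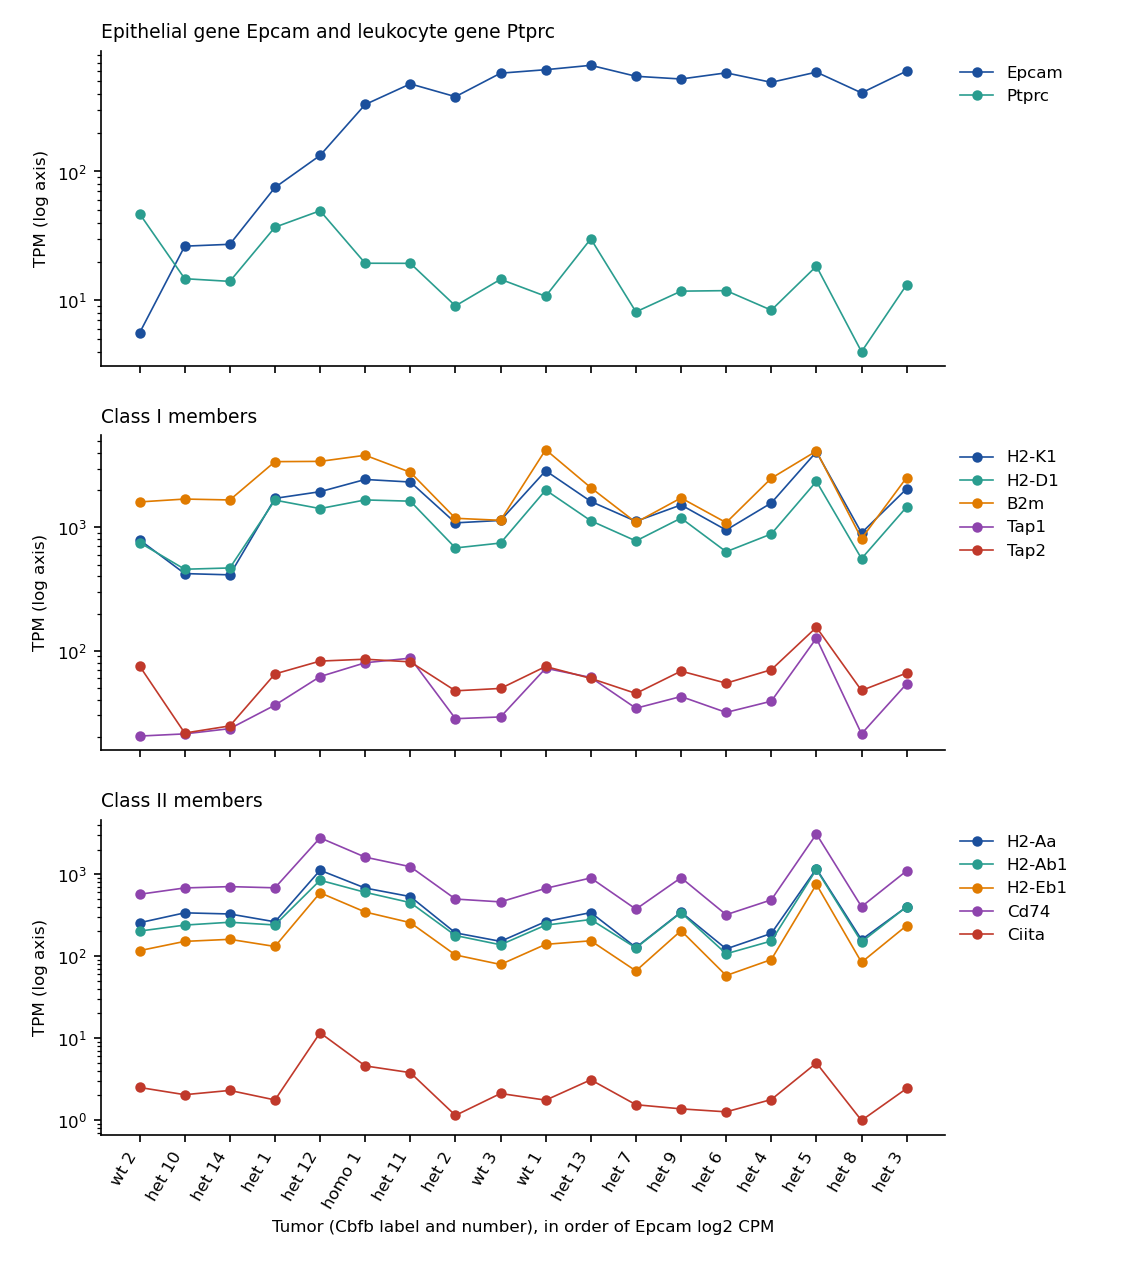
TPM on log axes of Epcam and Ptprc (top), the 5 class I members (middle) and the 5 class II members (bottom), 1 point per tumor, with the 18 tumors in order of Epcam log2 CPM. H2-K1, H2-D1, Tap1 and Tap2 dip in Cbfb(het) 10 and 14, the class II chains and Cd74 run in parallel, and Cbfb(het) 5 and 12 stand highest among class II.

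Ranked by median TPM, the members ran from B2m (1916) through H2-K1 (1549), H2-D1 (1008), Cd74 (680.5), H2-Aa (295), H2-Ab1 (240), H2-Eb1 (145), Tap2 (65.4) and Tap1 (37.6) to Ciita (2.08). Most neighbors in this order kept it within tumors: H2-K1 exceeded H2-D1 in 16 of 18, H2-D1 exceeded Cd74 in 14, and H2-Aa exceeded H2-Ab1 in 17. Cd74 exceeded H2-Aa, H2-Ab1 exceeded H2-Eb1, H2-Eb1 exceeded Tap2, and Tap1 exceeded Ciita in all 18. The pair closest to parity was H2-Aa and H2-Ab1, whose ratio ran from 0.997 to 1.41.

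The class II chains and Cd74 kept nearly fixed proportions to each other while their level moved about 10-fold. The ratio of Cd74 to H2-Ab1 ran only from 2.67 to 3.34 over the 18 tumors, a 1.25-fold range, while H2-Ab1 itself spanned 10.7-fold. The ratio of H2-Eb1 to H2-Ab1 ran from 0.525 to 0.703. Over log2 CPM in 18 tumors, the 10 pairs of class II members had Pearson correlations of 0.81 to 0.996 (median 0.99), and the lower values were those of Ciita. Class I was looser, with 10 pairs at 0.54 to 0.96 (median 0.82). The 25 pairs across the classes lay at 0.34 to 0.74 (median 0.55). These correlations are descriptions without a test, and all share the same libraries and scaling. H2-Ab1 per H2-K1 ran from 0.083 in Cbfb(wt) 1, a tumor rich in class I, to 0.629 in Cbfb(het) 14, a 7.58-fold range.

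Against Ptprc, the class II members had larger slopes than the class I members, and only Ciita passed the test. The slope is the change in log2 expression for each unit of log2 Ptprc, fitted over all 18 tumors with edgeR. It was 0.71 ± 0.19 (SE) for Ciita (adjusted p = 0.0234, edgeR quasi-likelihood test with Benjamini-Hochberg adjustment over 18093 genes). That is 1 of 10 members called, where 12% of all genes tested were called and 8.31% were called with a positive slope. The other class II slopes were 0.68 ± 0.28 for H2-Aa, 0.62 ± 0.30 for H2-Ab1, 0.71 ± 0.31 for H2-Eb1 and 0.66 ± 0.28 for Cd74, with edgeR adjusted p from 0.116 to 0.179. The class I slopes were 0.03 ± 0.30 for H2-K1, 0.14 ± 0.23 for H2-D1, 0.25 ± 0.22 for B2m, 0.14 ± 0.26 for Tap1 and 0.12 ± 0.21 for Tap2, with edgeR adjusted p from 0.463 to 0.959. The Ciita call rested on Cbfb(het) 12: without it the slope was 0.40 and the edgeR adjusted p 0.293. Within the 13 tumors high in Epcam, its slope was 0.89 with an edgeR adjusted p of 0.162, and limma-voom over all 18 tumors gave 0.53 with an adjusted p of 0.093, or 0.78 and 0.00536 with sample quality weights. Whether class I and class II slopes differ was not tested.

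Rank and product-moment correlations with Ptprc were also largest for Ciita, without a call. Ciita had a Pearson r of 0.55 (permutation p = 0.0166, adjusted p = 0.083 over all genes) and a Spearman rho of 0.65 (permutation p = 0.00473, adjusted p = 0.0763) over 18 tumors. Without the 2 tumors farthest in Ptprc, Cbfb(wt) 2 and Cbfb(het) 12, its r was 0.45. Over the same 18 tumors, r was 0.37 to 0.43 for the other class II members and -0.01 to 0.30 for class I, with adjusted permutation p of 0.195 or more. None of the 10 members was called, against 13.6% of all genes by Pearson and 3.97% by Spearman.

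**Figure D2:**
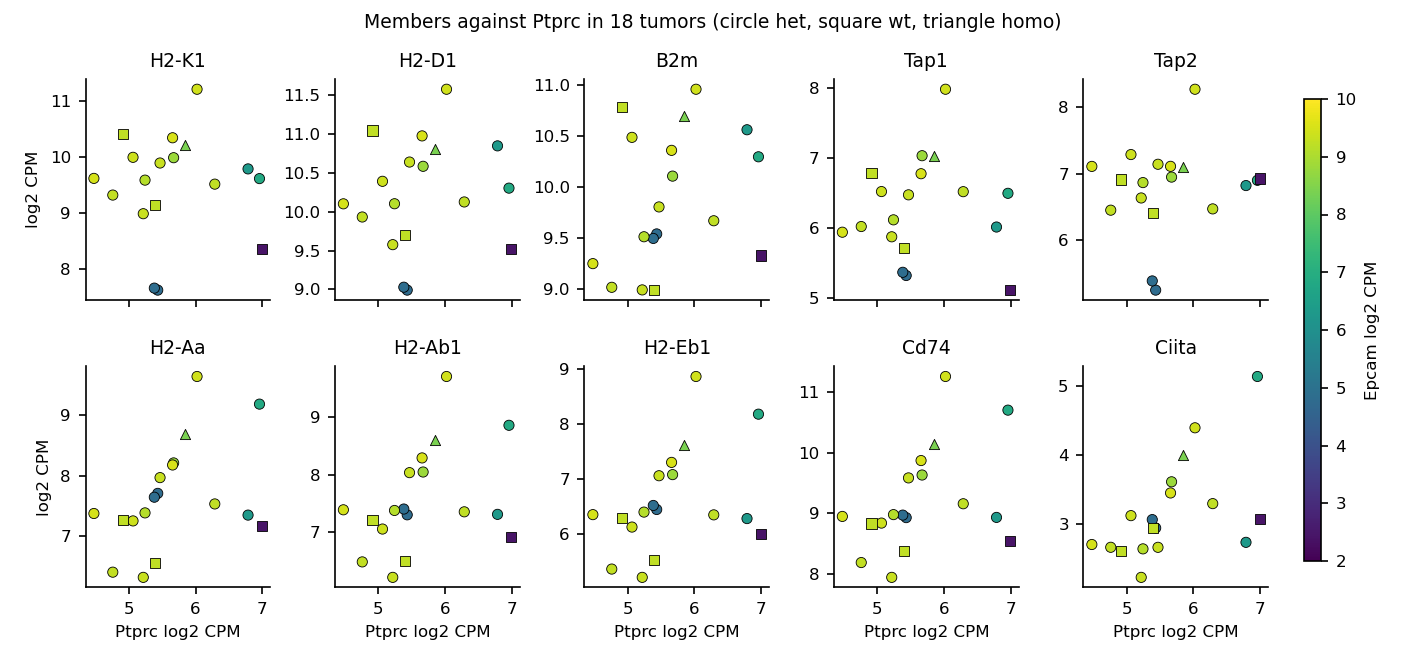
Each member's log2 CPM against that of Ptprc in 18 tumors, colored by Epcam log2 CPM, with shapes for the Cbfb label. Ciita had a slope of 0.71 and H2-K1 one of 0.03, and Cbfb(het) 5 and 12 are the 2 highest tumors in each class II panel.

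Per unit of Ptprc, MHC expression differed widely between tumors, and the divisor Ptprc itself spanned 12.4-fold in TPM. H2-Ab1 per unit of Ptprc ran from 4.30 in Cbfb(wt) 2 to 62.0 in Cbfb(het) 5, a 14.4-fold range of TPM ratios around a median of 18.3. Cd74 per Ptprc ran from 12.1 to 168 in the same tumors. H2-K1 per Ptprc ran from 16.9 in Cbfb(wt) 2 to 267 in Cbfb(wt) 1, both labelled Cbfb(wt). That range is 15.9-fold, wider than the 9.94-fold of H2-K1 itself, and Cbfb(wt) 2 had 47.0 TPM of Ptprc. Ciita per Ptprc ran over a 5.66-fold range, narrower than the 11.7-fold of Ciita itself, with its lowest value in Cbfb(het) 1. Cbfb(wt) 2, lowest in the first 3 of these ratios, also had the most Csf1r, a macrophage receptor gene, at 313 TPM, and H2-Ab1 per Csf1r ran from 0.646 there to 23.2 in Cbfb(het) 5. The 6 B cell markers summed to 1.51 to 9.32 TPM, of which Ms4a1 reached at most 0.12 TPM, Cd79b 3.22 TPM and Cd22, the highest, 5.11 TPM. The 8 dendritic cell markers summed to 9.30 to 61.2 TPM, and the 8 macrophage markers to 633 to 3490 TPM. Most of the highest dendritic sum, in Cbfb(het) 13, was Itgax at 57.9 TPM, while Flt3, Xcr1 and Clec9a reached at most 1.42, 0.61 and 0.57 TPM in any tumor.

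**Figure D3:**
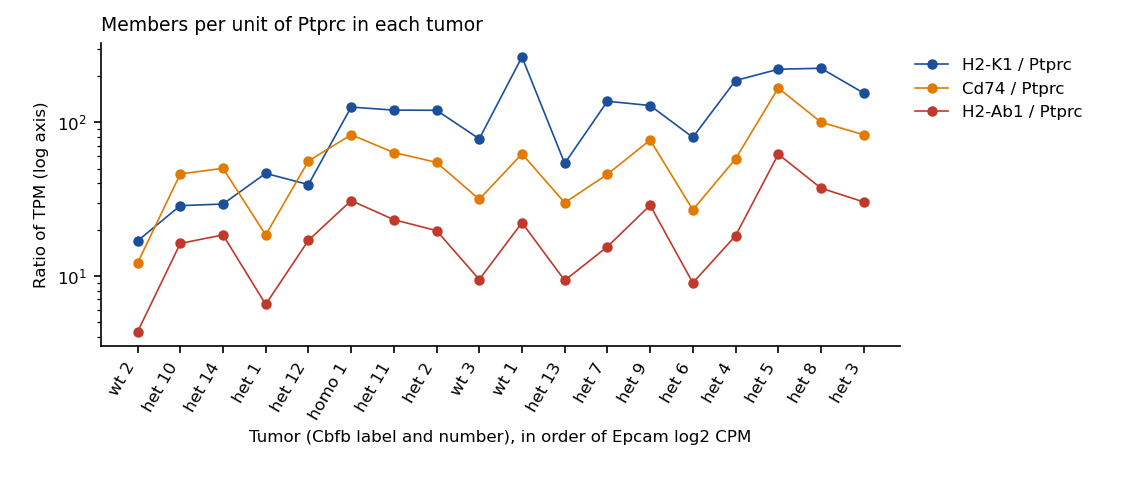
Ratios of TPM of H2-K1, Cd74 and H2-Ab1 to Ptprc, on a log axis, 1 point per tumor, with the 18 tumors in order of Epcam log2 CPM. H2-Ab1 per Ptprc spans 4.30 in Cbfb(wt) 2 to 62.0 in Cbfb(het) 5.

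Within the 13 tumors high in Epcam, no member passed the test on Epcam. Slopes per log2 unit of Epcam lay between -0.56 ± 0.50 for Ciita and 0.31 ± 0.43 for Tap2, and edgeR adjusted p was 0.559 or more for all 10, where 1.78% of 18633 genes were called. By edgeR, 0 members had an unadjusted p under 0.05, and DESeq2 and limma-voom also called 0 members. The Epcam range of these tumors is narrow, so the standard errors were 0.43 to 0.81 and slopes of that size were not detectable. Pearson and Spearman permutation tests over the 13 likewise called 0 members and 0% of all genes.

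With Ptprc and Epcam fitted together over all 18 tumors, 4 class I members rose with Epcam, and Ciita rose with Ptprc. At equal Ptprc, each log2 unit of Epcam went with 0.44 ± 0.08 (SE) for H2-K1 (edgeR adjusted p = 0.000688), 0.32 ± 0.07 for Tap1 (edgeR adjusted p = 0.00224), 0.29 ± 0.07 for H2-D1 (edgeR adjusted p = 0.00669) and 0.23 ± 0.07 for Tap2 (edgeR adjusted p = 0.0231). Of all 18571 genes tested, 29.5% were called for Epcam and 14.5% with a positive slope. This fit crosses the gaps in Epcam, so its Epcam slopes rest in large part on the 5 low tumors against the 13. They do not show a steady rise along Epcam. B2m had 0.14 ± 0.08 and the class II members 0.11 to 0.20, with edgeR adjusted p from 0.119 to 0.336. These calls rested largely on the nearly alike libraries: without both Cbfb(het) 10 and 14, only Tap1 passed (0.40 ± 0.10, edgeR adjusted p = 0.0442), H2-K1 had 0.36 ± 0.11 (edgeR adjusted p = 0.107), and 3.55% of genes were called. Tap2 was also lost when Cbfb(het) 5, 10 or 14 alone was left out, and within the 13 tumors high in Epcam no member was called. Along the same Epcam slope, 7 of 8 mesenchymal markers fell and 3 of 3 plasma cell and 4 of 7 T cell markers rose, and their part in the class I slopes was not tested.

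At equal Epcam, every member had a positive slope on Ptprc. Ciita had 0.83 ± 0.21 (SE, edgeR adjusted p = 0.0298), where 5.07% of genes were called and 3.84% with a positive slope. The chains and Cd74 had 0.81 to 0.89 with edgeR adjusted p from 0.0689 to 0.114, and class I had 0.44 to 0.68 with edgeR adjusted p from 0.0691 to 0.311. H2-K1 moved most between the fits, from 0.03 ± 0.30 with Ptprc alone to 0.68 ± 0.21 beside Epcam. The Ciita call was lost without Cbfb(het) 5, 7, 10, 12 or 14, with edgeR adjusted p of 0.0559, 0.0519, 0.0629, 0.266 and 0.0543, and also without both 10 and 14, at 0.0686. With limma-voom its adjusted p was 0.088.

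**Figure D4:**
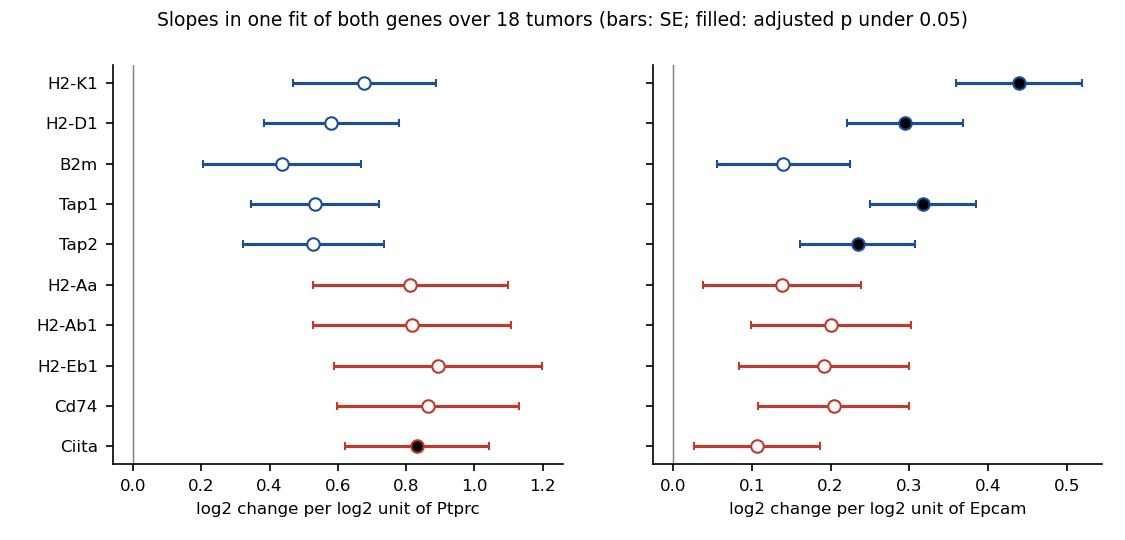
Slopes of the 10 members on log2 Ptprc (left) and log2 Epcam (right) from a single edgeR fit over 18 tumors, with SE bars, class I in blue and class II in red, and filled points where the adjusted p was under 0.05. Only Ciita is filled at left (0.83), and H2-K1, H2-D1, Tap1 and Tap2 are filled at right (0.23 to 0.44).

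Further genes of the class I pathway were called on Epcam, in either direction, at a rate near that of all genes, and most of the calls were rises. In the fit of both genes, 6 of 20 such genes rose with Epcam, where 14.5% of all genes did, and 1 fell, where 2782 of 18571 did. In either direction 29.5% of all genes were called, and the list median slope was 0.11 against 0.01 over all genes. Those that rose were the nonclassical heavy chains H2-Q6 (0.88 ± 0.18), H2-Q7 (0.81 ± 0.19), H2-Q4 (0.45 ± 0.08) and H2-T23 (0.38 ± 0.06), and, named after their values were seen, the immunoproteasome subunit Psmb9 (0.38 ± 0.10) and Nlrc5 (0.41 ± 0.13). The disulfide isomerase Pdia3 of the loading complex, also named after its value was seen, fell (-0.11 ± 0.04). None of the 20 passed without Cbfb(het) 10 and 14, where 581 of 19012 genes rose and 93 fell. With Ptprc in that fit, 3 of the 20 rose: H2-Q6 (1.55 ± 0.42), Psmb9 (1.10 ± 0.29) and the nonclassical H2-T24 (0.96 ± 0.22), where 3.84% of all genes rose. Without Cbfb(het) 10 and 14, 2 were called, H2-T24 and H2-M3, where 155 of 19012 genes rose. The list median was 0.56, against 0.01 over all genes.

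Several class II processing genes rose with Ptprc. With Ptprc alone, 5 of 13 further class II pathway genes rose and none fell, beside 12% of all genes called and 8.31% with a positive slope, with a list median slope of 0.74 against -0.02 over all genes. They were the asparaginyl endopeptidase Lgmn (1.12 ± 0.14), the ubiquitin ligase March1 (1.05 ± 0.13), H2-Ob (1.22 ± 0.26), a chain of the peptide editor inhibitor H2-O, the invariant chain protease Ctss (0.75 ± 0.13) and, named after its value was seen, H2-DMa (0.74 ± 0.23), a chain of the peptide editor H2-M. The same 5 passed without Cbfb(het) 10 and 14, where more of all genes were called: 2494 of 17894 rose and 1656 fell. Beside them, 7 of 8 macrophage and 5 of 8 mesenchymal markers rose with Ptprc. With Epcam in the fit, 6 of the 13 rose with Ptprc, against 3.84% of all genes, while on Epcam Ctss rose (0.14 ± 0.04) and Lgmn fell (-0.18 ± 0.04). Without Cbfb(het) 10 and 14, 3 of the 13 (Ctss, Lgmn and March1) were called on Ptprc and 0 on Epcam. Of all 19012 genes tested there, 155 rose with Ptprc and 581 with Epcam.

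Few upstream regulators were called. Of 7 genes shared by both classes (the RFX complex, Creb1 and the NF-Y subunits), none was called on Ptprc, where 12% of all genes were, while Rfx5 (0.17 ± 0.05) and Nfyb (0.12 ± 0.04) rose with Epcam in the fit of both genes, where 14.5% of all genes did. Neither was called without Cbfb(het) 10 and 14. Of 9 genes tested from the interferon gamma axis, Irf8 (0.84 ± 0.10) and Irf1 (0.64 ± 0.14), both interferon regulatory factors, rose with Ptprc alone, where 8.31% of all genes did. In the fit of both genes Socs1, a brake on cytokine signaling, fell with Epcam (-0.32 ± 0.11), where 2782 of 18571 genes did. That call was lost without Cbfb(het) 10 and 14. Ifng itself was at 0 counts in 8 tumors and reached at most 39 counts, so a relation to it could not be measured.

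By Pearson correlation on log2 CPM, Tap1 and H2-K1 were called with Nlrc5, and no member was called with Ciita. This difference in calls is not one of strength, since r reached 0.87 with Nlrc5 and 0.86 with Ciita. These 2 references were picked after values had been seen, and whether a transactivator correlates more with one class than with the other was not tested. Nlrc5, at 3.37 to 39.9 TPM, had a Pearson r over 18 tumors of 0.87 with Tap1 (permutation p = 1e-05, the smallest these resamples can give, adjusted p = 0.0181), 0.81 with H2-K1 (permutation p = 7e-05, adjusted p = 0.0487) and 0.81 with H2-D1 (permutation p = 0.00011, adjusted p = 0.0553). So 2 of 10 members were called, against 0.144% of all genes. By Spearman, rho was 0.91 for Tap1, 0.87 for H2-D1 and 0.83 for H2-K1 (adjusted permutation p of 0.0201, 0.0201 and 0.0633), with 0.0884% of genes called. B2m had r = 0.72, Tap2 0.59 and the class II members 0.46 to 0.56. Without the 2 tumors farthest in Nlrc5, Cbfb(wt) 1 and Cbfb(het) 11, r was 0.92 for Tap1, 0.85 for H2-K1 and 0.84 for H2-D1. Without Cbfb(het) 10 and 14, r was 0.83, 0.74 and 0.73, and no member and no gene was called. Within the 13 tumors high in Epcam, Tap1 passed (r = 0.80, adjusted permutation p = 0.0379), where 3.2% of genes were called.

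Ciita had high correlations with the class II chains and Cd74, none of them called on log2 CPM. Its r over 18 tumors was 0.86 with Cd74 (permutation p = 2e-05, adjusted p = 0.0517), 0.86 with H2-Aa (permutation p = 2e-05, adjusted p = 0.0517), 0.84 with H2-Eb1 (permutation p = 3e-05, adjusted p = 0.0679) and 0.81 with H2-Ab1 (permutation p = 0.0001, adjusted p = 0.111). The Spearman coefficients were lower, at 0.69, 0.68, 0.64 and 0.65 (adjusted permutation p = 0.461 for each). Only 4 genes (0.0221%) were called by Pearson and 0% by Spearman. With class I, r was 0.34 to 0.54. Without the 2 tumors farthest in Ciita, Cbfb(het) 5 and 12, r with these 4 members was 0.70 to 0.75. On log2(TPM + 1), all 4 were called with adjusted permutation p of 0.0181 or less, where 1.64% of genes were.

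**Figure D5:**
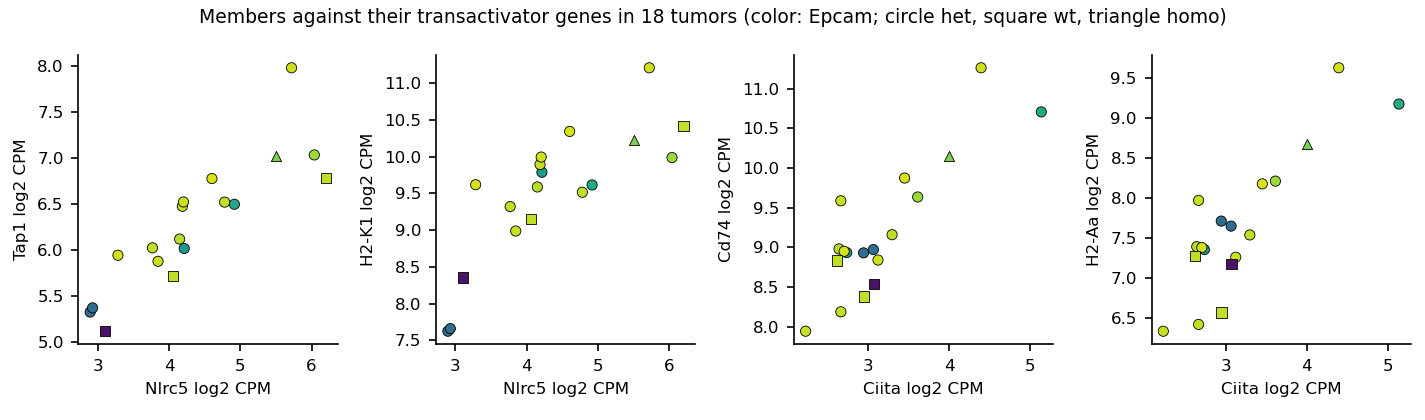
Log2 CPM of Tap1 and H2-K1 against Nlrc5 and of Cd74 and H2-Aa against Ciita in 18 tumors, colored by Epcam log2 CPM, with shapes for the Cbfb label. The tumors form rising bands with r of 0.87, 0.81, 0.86 and 0.86, and the low corner of the Nlrc5 panels holds Cbfb(wt) 2 and Cbfb(het) 10 and 14.

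Leaving the members themselves out of the ranking, 13065 other genes with a mean of at least 1 log2 CPM were compared with each member across the 18 tumors. Among these others, H2-K1 was most like H2-Q7 (r = 0.96), H2-Q6 (0.94) and H2-Q4 (0.94), and H2-D1 was most like H2-Q7 (0.95), H2-Q6 (0.93) and Psmb9 (0.89). These class I genes are close relatives whose reads the counting may divide between them, so their likeness is uncertain. B2m was most like the nonclassical H2-T10 (0.87) and H2-T22 (0.84) and the tropomyosin gene Tpm2 (0.83). Tap1 was most like H2-Q6 (0.94), H2-Q7 (0.93) and the interferon-induced GTPase Tgtp1 (0.93), and Tap2 was most like Mthfs (0.90), Psmb9 (0.90) and Paqr6 (0.90). H2-Aa, H2-Ab1, H2-Eb1 and Cd74, closer to each other than to any gene outside the members, shared the same 3 in the same order, the H2-M chains H2-DMb1 (0.95 to 0.96), H2-DMb2 (0.87 to 0.88) and H2-DMa (0.85 to 0.87). Outside the members, Ciita was most like the T cell adaptor Grap2 (0.88), Ppfia4 (0.85) and Adgrg5 (0.83), beside 0.86 with Cd74 and with H2-Aa.

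Between the Cbfb labels no member passed the test. In TPM, the tumors Cbfb(wt) 1, 2 and 3 had 2880, 792 and 1139 for H2-K1, against 412 to 4098 (median 1549) in the 14 Cbfb(het) tumors and 2447 in the Cbfb(homo) tumor. For H2-Ab1 the Cbfb(wt) tumors had 239, 202 and 138, against 107 to 1142 (median 250) in Cbfb(het) and 600.3 in Cbfb(homo). The groups overlapped for both genes. By TPM, 9 of the 14 Cbfb(het) tumors lay above all Cbfb(wt) tumors for H2-Ab1 and 2 lay below them. Of the 9, Cbfb(het) 10 and Cbfb(het) 1 did so narrowly, at 239.22 and 240.08 against 238.93 in Cbfb(wt) 1. The log2 fold changes of Cbfb(het) over Cbfb(wt) were 0.95 to 1.03 for H2-Aa, H2-Ab1, H2-Eb1 and Cd74, each with an SE of 0.57 to 0.63, and 0.51 ± 0.51 for Ciita. For class I they were 0.04 to 0.43 with SE of 0.41 to 0.55. All had an edgeR adjusted p of 0.999. None of 18475 genes was called (0%), and 623 had an unadjusted edgeR p under 0.05, none of them a member. DESeq2 and limma-voom called 0 members as well. The Cbfb(homo) tumor, which has no replicate, lay between the lowest and highest Cbfb(het) tumor for all 10 members.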

How the data were processed

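Bulk RNA of 18 mammary tumors was measured, with 1 table per tumor. The authors deposited RSEM expected counts (estimated reads per gene, not normalized, per the file headers) and TPM, scaled by gene length to 1000000 per tumor, so without depth. Per the submitters' processing notes, STAR 2.7.0f, RSEM 1.3.1 and mm10 were used. No source used here names the annotation release or strand setting. Each of the 55450 gene IDs is found in GENCODE M21 (GRCm38), which gave the positions. No strain is labelled, and MHC genes differ between strains; what that does to the counts was not tested. Between 6.20% and 7.19% of a tumor's expected counts were not whole, and all were rounded.

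Counts were tested with edgeR 4.0.16 in R 4.3.3 (filterByExpr, TMM, robust quasi-likelihood F-test), with Cbfb label, log2 CPM of Ptprc, or Ptprc and Epcam together as terms. P-values were adjusted over all genes tested (Benjamini-Hochberg, threshold 0.05). The SE is the log2 change divided by the square root of F. Log2 CPM used TMM and a prior count of 2. Correlations used two-sided permutation tests with 100000 resamples. DESeq2 1.42.0, limma-voom 3.58.1, other scales and left-out tumors were alternatives. The fits were also run on simulated counts whose spread was fixed and smaller than in the label comparison here, so that run is no check of these results. The genes named are the members, Epcam, Ptprc, Cbfb and Pik3ca, per list and comparison at most 4 genes with the smallest p, and per member the 3 with the highest r. Members and lists were chosen with earlier results of these data known. The text gives 4 references for correlations (Ptprc, Epcam, Ciita and Nlrc5), each adjusted separately. P-values measure the spread between single tumors, with the nearly alike Cbfb(het) 10 and 14 counted as 2. The deposited FPKM was not used.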

Additional observations from a re-analysis of the deposited data

How the results depend on the processing

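The alternatives tested another tool (DESeq2 or limma-voom), no low-count filter, other scales and covariates, and fewer tumors. Leaving out both Cbfb(het) 10 and 14, taking Nlrc5 or Ciita as references, the mean of 4 leukocyte markers, and leaving out single tumors in the fit of both genes were chosen after seeing the data. No paired analysis was possible because the labels give no shared replicate numbers. On Ptprc, DESeq2 called 3 members and 23.2% of all genes, and limma-voom with sample quality weights 4 members and 27.6%. Limma-voom without them called 0 members and 12.7% of all genes, and 0 members were called within the 13 tumors. On Epcam, 2 were called over all 18 tumors, both in the fit and by Pearson correlation. In the fit of both genes, Ptprc called 5 members with DESeq2, 0 with limma-voom, 0 within the 13 tumors and 0 without Cbfb(het) 10 and 14, and Epcam called 0 within the 13 and 1 without those 2. Without those 2, 155 of 19012 genes rose with Ptprc in that fit and 581 rose with Epcam. Leaving out single tumors gave 0 to 1 calls on Ptprc, 0 to 4 on Ptprc beside Epcam and 3 to 4 on Epcam beside Ptprc. Pearson correlation with Ptprc called 1 member (Ciita) on log2(TPM + 1) and 1 on log2(TPM + 0.1). With Ciita, 4 were called on log2(TPM + 1). With Nlrc5, 0 were called without Cbfb(het) 10 and 14 and 1 within the 13. Member counts with no share of all genes, here or in the results above, were not compared with one. Such counts, among them the 5 with DESeq2, are therefore no result about the members.

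Directions that turned all belonged to values past no threshold, except that Tap1 was called on Epcam over all 18 tumors. Of Cbfb(het) over Cbfb(wt), limma-voom gave -0.0064 for Tap2, quality weights gave -0.14 for H2-K1, -0.19 for H2-D1 and -0.33 for B2m, Ptprc as a covariate gave -0.035 for B2m, and Epcam as a covariate gave -0.17 for H2-K1, -0.086 for H2-D1 and -0.19 for Tap2. For H2-K1 on Ptprc, limma-voom gave -0.012, the Cbfb label as a covariate -0.0079, and leaving out Cbfb(het) 10 and 14 -0.047. On Epcam in the 13 tumors, DESeq2 gave -0.013 for H2-D1, limma-voom -0.072 for H2-K1 and -0.13 for H2-D1, and quality weights -0.12 and -0.15. Over all 18 tumors, the Epcam slope was 0.059 for B2m, 0.23 for Tap1, 0.029 for H2-Aa, 0.089 for H2-Ab1, 0.073 for H2-Eb1 and 0.081 for Cd74. In the fit of both genes within the 13, it was -0.19 for B2m and -0.21 for Ciita. The correlation of H2-K1 with Ptprc was 0.046 by rank, 0.18 on both TPM scales and 0.35 within the 13, and that of Tap1 was -0.028 without Cbfb(het) 10 and 14. The cause was not tested.

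Leaving out single tumors, the ranges that crossed 0 were, between labels, -0.18 to 0.93 for H2-K1, -0.15 to 0.75 for H2-D1, -0.27 to 0.79 for B2m and -0.038 to 0.23 for Tap2; on Ptprc, -0.10 to 0.21 for H2-K1 and -0.0097 to 0.34 for Tap1; on Epcam in the 13 tumors, -0.27 to 0.72 for H2-K1, -0.28 to 0.56 for H2-D1, -0.62 to 0.42 for B2m, -0.69 to 0.10 for Tap1, -0.0199 to 0.96 for Tap2, -1.01 to 0.63 for H2-Aa, -0.87 to 0.96 for H2-Ab1, -0.88 to 1.04 for H2-Eb1, -0.81 to 0.92 for Cd74 and -0.94 to 0.0895 for Ciita. Depth did not limit the members, each with at least 178 counts in every tumor.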
